A study of Mus musculus with 6 samples.

Results

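Active promoters at which no Pax5 peak was listed were examined in mouse pre-B cells. A member was an H3K4me3 region that lay within 1 kb of an annotated transcript start of a protein-coding gene, met an H3K27ac peak by at least 1 bp and met no Pax5 peak. There were 2736 such regions among 9701 active promoter regions, or 28.2%, and 6965 active promoters met a Pax5 peak. All H3K4me3 regions numbered 17979, of which 11958 lay near a coding start. The members were selected on the presence of H3K4me3 and H3K27ac and on the absence of a Pax5 peak, so these 3 properties describe how they were chosen and are no finding.

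The series held ChIP-seq of H3K27ac, H3K4me3 and Pax5 with 1 library each, and 3 input samples whose files were not used here. All cells were RAG-/- µ+ pre-B cells on the C57BL/6 background. The mice lacked RAG, the recombinase of antigen receptor genes, and carried an already rearranged IgM heavy chain transgene. Cells came from the bone marrow of animals of both sexes aged 6 to 14 wk, and no second genotype, stage or treatment was present, so the cells stand for pre-B cells that cannot rearrange their light chain genes.

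Trimethylation of histone H3 at lysine 4 marks the nucleosomes around the start sites of genes that are transcribed or poised, and acetylation at lysine 27 of the same histone marks promoters and enhancers in use. Pax5 is the paired-domain transcription factor that commits progenitors to the B lineage, where it activates B cell genes and represses genes of other lineages. Most promoters of broadly used genes in mammals lie in CpG islands, stretches rich in the CG dinucleotide, whereas promoters of genes used in few tissues more often lack them.

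The lists contained 69345 H3K27ac peaks with scores from 3.06 to 330, 782636 H3K4me3 bins of 25 bp and 15445 Pax5 peaks with scores from 87.9 to 3214. A score is the number that the peak caller gave to a peak, and the H3K4me3 bins had none. Sequencing depth is unknown from these lists. Each list came from 1 library, so no value had a replicate error and no test was made. The 95% intervals given are Wilson intervals. They cover counting error only, and they treat regions as independent although neighbouring regions and members of a gene family are not. Without Pax5 means without a peak on this list, since Pax5 signal below the lowest listed score cannot be seen here.

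The pre-B label was checked against marker genes. Of the 26 annotated B-lineage markers, 25 had an active promoter region, and Igll1, which encodes a surrogate light chain component, had none. Of 8 T cell markers only Lck had an active region, as did 3 of 6 myeloid markers, 2 of 4 erythroid markers and 0 of 4 markers of other tissues. Of all 22367 protein-coding genes, 10124 had an active region. The myeloid and erythroid shares were thus not below that of all genes, and these few markers do not set the 2 lineages apart.

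Starts of members are shown first because CpG content differed between active promoters without and with Pax5 in the values that follow. Each window runs from 250 bases before to 50 bases after the start in NCBIM37, which is mm9, and is written 5′ to 3′ on the strand of the gene, with every CpG in capitals. Pde4b, the gene of a phosphodiesterase that degrades cAMP, had the widest of all members and a CpG-poor start (chr4:102242450-102242749, + strand, 2 CpG). Setd1b, which encodes a methyltransferase of H3 lysine 4, had the widest member with a CpG-dense start (chr5:123591952-123592251, + strand, 19 CpG). Btk, the tyrosine kinase downstream of the B cell receptor, was the only B-lineage marker without Pax5 at any active region (chrX:131116963-131117262, - strand, 5 CpG).
Pde4b: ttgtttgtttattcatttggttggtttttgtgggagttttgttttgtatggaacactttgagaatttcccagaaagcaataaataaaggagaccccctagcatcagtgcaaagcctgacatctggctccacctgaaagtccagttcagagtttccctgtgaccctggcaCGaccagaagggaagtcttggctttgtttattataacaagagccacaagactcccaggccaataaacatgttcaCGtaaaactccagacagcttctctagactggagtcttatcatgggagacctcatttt
Setd1b: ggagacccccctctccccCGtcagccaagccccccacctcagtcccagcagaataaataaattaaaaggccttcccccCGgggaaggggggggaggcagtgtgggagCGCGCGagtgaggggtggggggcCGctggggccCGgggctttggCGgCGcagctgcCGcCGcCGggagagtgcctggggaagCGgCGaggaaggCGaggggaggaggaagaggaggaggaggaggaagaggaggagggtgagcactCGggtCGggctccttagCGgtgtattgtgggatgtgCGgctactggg
Btk: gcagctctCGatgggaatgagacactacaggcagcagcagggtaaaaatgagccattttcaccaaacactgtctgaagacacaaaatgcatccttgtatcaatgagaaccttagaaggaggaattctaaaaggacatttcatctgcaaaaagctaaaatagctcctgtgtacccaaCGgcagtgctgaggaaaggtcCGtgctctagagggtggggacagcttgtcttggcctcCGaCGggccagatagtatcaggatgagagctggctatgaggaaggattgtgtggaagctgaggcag

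A further set is shown for the motifs counted later, with the matched motif in capitals. Vim, the gene of the intermediate filament vimentin, had a member 3325 bp wide and a TATA box 43 bases before its start (chr2:13495699-13495998, + strand). Arhgdib had its nearest Pax5 peak 7.43 kb from the region, and its window held the Pax5 core GCGTGAC, read on the opposite strand, 63 bases before the start (chr6:136888063-136888362, - strand). BC031781 is given for contrast as an active promoter with a high-scoring Pax5 peak of 2779, with the same core 142 bases before the start (chr1:182781032-182781331, + strand).
Vim: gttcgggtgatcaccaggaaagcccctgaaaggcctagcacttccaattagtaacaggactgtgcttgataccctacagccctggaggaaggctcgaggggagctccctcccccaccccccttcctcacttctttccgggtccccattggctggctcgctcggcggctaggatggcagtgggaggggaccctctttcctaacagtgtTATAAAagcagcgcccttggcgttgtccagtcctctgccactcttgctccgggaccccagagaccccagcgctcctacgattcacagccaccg
Arhgdib: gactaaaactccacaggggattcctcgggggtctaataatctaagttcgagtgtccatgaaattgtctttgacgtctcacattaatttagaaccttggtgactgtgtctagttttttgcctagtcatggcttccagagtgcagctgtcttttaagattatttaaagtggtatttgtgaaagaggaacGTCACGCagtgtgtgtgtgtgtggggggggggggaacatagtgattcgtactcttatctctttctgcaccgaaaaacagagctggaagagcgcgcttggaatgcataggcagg
BC031781: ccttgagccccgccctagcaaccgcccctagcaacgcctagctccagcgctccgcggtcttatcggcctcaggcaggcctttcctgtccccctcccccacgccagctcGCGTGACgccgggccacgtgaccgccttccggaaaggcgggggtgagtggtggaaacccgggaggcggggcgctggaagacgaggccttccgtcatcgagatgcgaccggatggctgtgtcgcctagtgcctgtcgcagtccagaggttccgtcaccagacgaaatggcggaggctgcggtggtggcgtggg

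Active promoters without Pax5 were narrower. Their H3K4me3 regions had a median width of 1150 bp, with 10% under 275 bp and 10% over 1925 bp. Active promoters with Pax5 had a median of 1600 bp and the same limits at 950 and 2600 bp. The medians differed by 450 bp, a ratio of 1.39. Regions under 500 bp made up 15.7% of the members (14.4 to 17.1%) and 2.86% of the active promoters with Pax5 (2.49 to 3.28%). At the other end, 39 members, or 1.43%, were 3000 bp or wider, against 5.96% of those with Pax5. A wide region meets a Pax5 peak more easily than a narrow region, so width and the rule are tied by construction. When Pax5 was instead read in a fixed window of 1 kb on each side of the start, 2649 regions had none, with a median width of 1175 bp and a ratio of 1.34.

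**Figure D1:**
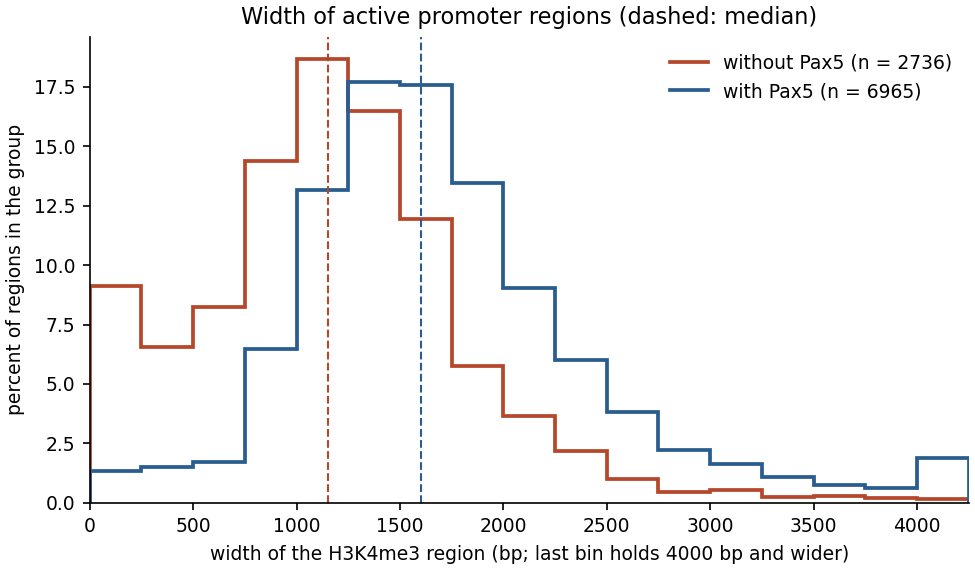
Widths of active promoter regions in bins of 250 bp, as the percent of the 2736 regions without Pax5 and of the 6965 regions with Pax5; dashed lines mark the medians, and the last bin holds all regions of 4000 bp and wider. The distribution without Pax5 was shifted to narrower regions, with medians of 1150 and 1600 bp, and had a second group under 250 bp.

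The share of active promoters without Pax5 fell from class to class of rising width. It was 68.3% under 500 bp, 52.1% from 500 to 1000 bp and 30.9% from 1000 to 1500 bp. It was 18.3% from 1500 to 2000 bp, 12.03% from 2000 to 3000 bp and 8.59% at 3000 bp or wider, and the intervals of the first 5 classes did not overlap. Of the 429 members under 500 bp, 171 (39.9%) belonged to a gene that had a Pax5 peak at another active region, at whatever distance, 89 (20.7%) lay within 1 kb of a region with Pax5, and 20.3% overlapped an annotated start. Of the 2307 wider members, 8.89% belonged to such a gene and 95.4% overlapped a start. Without all members that belonged to such a gene or lay within 1 kb of a region with Pax5, 2358 members remained, with a median width of 1175 bp and a ratio of 1.36.

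**Figure D2:**
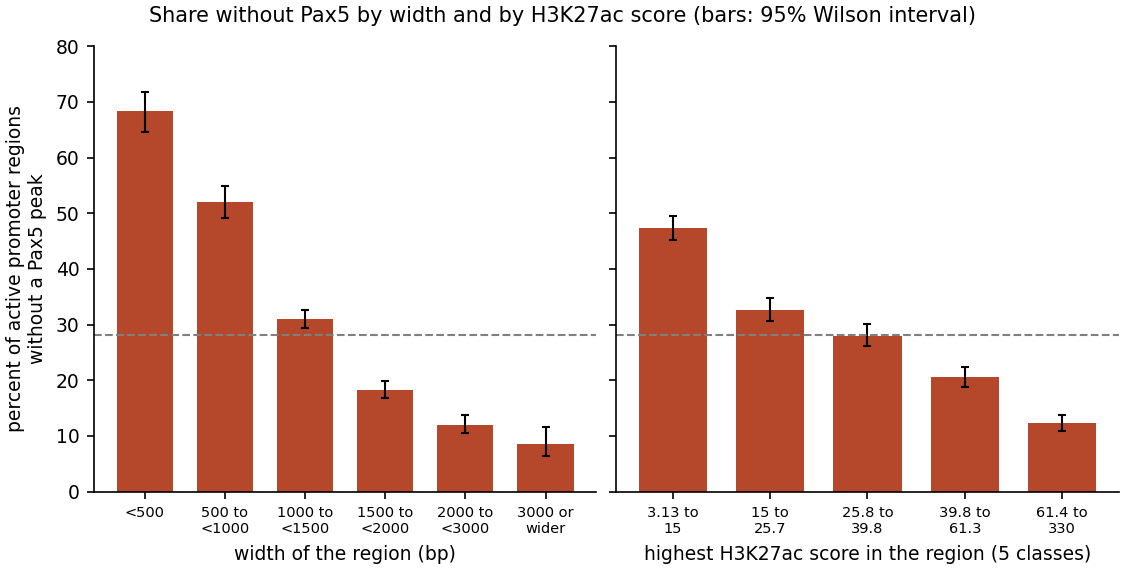
Percent of active promoter regions without a Pax5 peak by width of the H3K4me3 region (left) and by the highest H3K27ac score in the region, in 5 classes of like size (right); error bars are 95% Wilson intervals and the dashed line is the 28.2% over all active promoters. The share fell from 68.3 to 8.59% over the width classes and from 47.4 to 12.3% over the score classes.

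The 10 widest members were broad domains of 3675 to 6275 bp. The Pde4b region was 6275 bp wide (chr4:102241161-102247435), lay wholly under 1 H3K27ac peak with a score of 48.0, and was 55.9 kb from the nearest Pax5 peak. The Setd1b region was 5875 bp wide (chr5:123588246-123594120) with 3 H3K27ac peaks and the nearest Pax5 peak at 5.01 kb. Cd38, the gene of a surface enzyme that consumes NAD, had a region of 4050 bp with 4 H3K27ac peaks. Then came Rcc2, a regulator of chromosome segregation, at 4000 bp, and Tnpo2, a nuclear import receptor, at 3975 bp. Zfp608 (3875 bp), Pbx2 (3825 bp), L3mbtl3 (3800 bp), BC035044 (3775 bp) and Slfn2 (3675 bp) completed the list, with a zinc finger protein, a homeodomain factor, a chromatin reader and a Schlafen protein among their products. Distances to Pax5 in these 10 ranged from 1.397 kb at Pbx2 to 395 kb at L3mbtl3. CpG content divided them, with Setd1b, Rcc2, Tnpo2 and L3mbtl3 at CpG-dense starts and the other 6 not.

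H3K27ac scores were lower at members. The highest H3K27ac score within a region had a median of 21.9 without Pax5, with 10% under 7.69 and 10% over 58.7, against 37.3 with Pax5, a ratio of 1.70. Within the 6 width classes the ratio lay between 1.18 and 1.49, so the difference was smaller at matched width but had the same direction in each class. In 5 classes of like size by this score, from low to high, 47.4, 32.7, 28.0, 20.5 and 12.3% of active promoters lacked Pax5. More than a single H3K27ac peak was found in 29.97% of the members (28.3 to 31.7%) and in 59.3% of the regions with Pax5 (58.1 to 60.4%). Conversely, 22.6% of the members and 9.62% of the others were wholly covered by H3K27ac, which is easier in a narrow region. The members with the highest scores were Uros, an enzyme of haem synthesis, at 192, Rabgef1, an exchange factor for Rab GTPases, at 165, Rbm5, a splicing regulator, at 153, the histone gene Hist4h4 at 152, and Spag9, a scaffold of the JNK pathway, at 150. These 5 regions were 1650 to 2400 bp wide, all above the median of the members, and 2.86 to 66.0 kb from a Pax5 peak.

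Around the start, H3K27ac dipped less at members. The base of the start itself was inside an H3K27ac peak at 55.9% of the members and at 44.4% of the active promoters with Pax5. Coverage was highest 350 bp downstream at members, at 71.7%, and 500 bp downstream at the others, at 74.1%. On the upstream side the maxima were 61.8% at 350 bp and 70.7% at 400 bp. H3K4me3 covered the start at 88.4% of the members and 97.8% of the others, and 1000 bp upstream of it at 9.94 and 21.9%. Farther out upstream the order turned, with H3K27ac 2500 bp upstream at 9.39% of the members and 7.88% of the others, and H3K4me3 at 3.22 and 2.70%. At 2500 bp downstream it turned for H3K27ac, at 11.1 and 9.42%, but not for H3K4me3, at 1.90 and 3.50%. Where a region spanned a single annotated start, the part downstream was the longer in both groups. Medians were 383 bp upstream and 786 bp downstream for 757 members, and 579.5 and 972 bp for 1970 regions with Pax5.

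**Figure D3:**
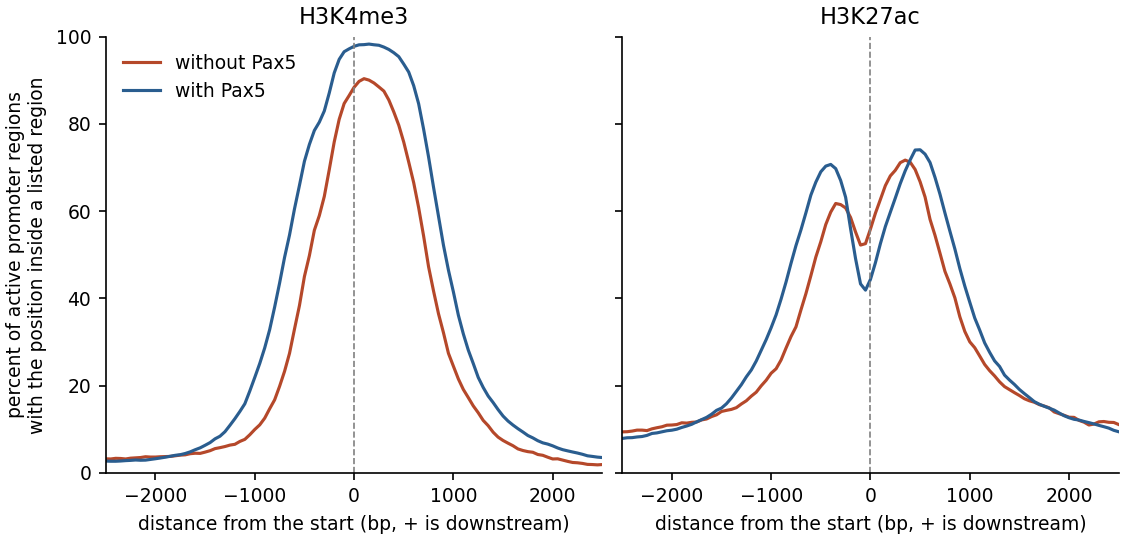
Percent of active promoter regions whose position at a given distance from the start, in steps of 50 bp and in the direction of transcription, lay inside an H3K4me3 region (left) or an H3K27ac peak (right). At 1000 bp from the start on either side both marks covered fewer of the regions without Pax5, at 2500 bp upstream they covered slightly more of them, and the dip of H3K27ac at the start was shallower there, with 55.9 against 44.4% covered.

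Fewer members had CpG-dense starts. A start was called CpG-dense when the 500 bp on each side had a GC content of at least 50% and an observed over expected CpG ratio of at least 0.6. This held for 49.01% of the members (47.1 to 50.9%) and for 83.1% of the active promoters with Pax5 (82.2 to 84.0%). It held for 44.2% of the starts of all 22367 coding genes. Those starts were the outer ends of the annotated genes, 1 per gene, here and for the motifs below. A region was instead read at the annotated transcript start nearest to it, so the 2 kinds of start are not fully alike. The median CpG ratio was 0.610 at members and 0.778 at active promoters with Pax5. Of the active promoters with a CpG-dense start 18.8% lacked Pax5, and of the others 54.2%. The difference had the same direction in each width class. Among regions of 1000 to 1500 bp, 60.9% of the members and 81.6% of the regions with Pax5 were CpG-dense, and at 3000 bp or wider 56.4 and 80.5% were. Members also less often served 2 or more coding genes on opposite strands, at 6.76% (5.88 to 7.76%) against 14.6% (13.8 to 15.5%). A wide region reaches more starts, so this share is tied to width as well. It was 6.76 against 8.33% among regions of 1000 to 1500 bp and 7.69 against 15.7% at 3000 bp or wider. The direction was the same in each width class. Gene length was alike, with medians of 23.4 and 24.6 kb.

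**Figure D4:**
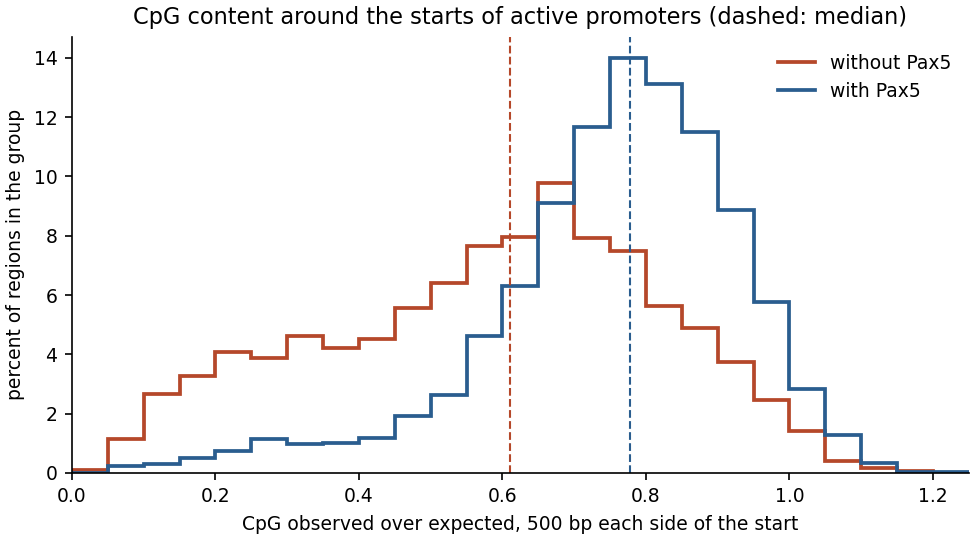
Observed over expected CpG ratio in the 500 bp on each side of the start, in bins of 0.05, as percent of the regions without and with Pax5; dashed lines are the medians of 0.610 and 0.778. Regions without Pax5 spread over the whole range, and those with Pax5 lay mostly above 0.6.

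14 motifs were searched as exact letters on both strands in the 300 bases of each window, and no motif was contained in another. The Pax5 core GCGTGAC was found at 1.39% of the members (1.01 to 1.90%), at 5.25% of the active promoters with Pax5 (4.76 to 5.80%) and at 2.58% of all coding genes. Among CpG-dense starts alone these shares were 1.49 and 5.56% for members and others. Members had the lower share in each width class under 3000 bp, with 2.10 against 3.52% under 500 bp. At 3000 bp or wider, with 39 members, the order turned, at 5.13 against 3.61%. The GC box GGGCGG, the binding sequence of Sp factors, was at 56.0 and 72.0% (43.4% of all coding genes), but at 72.3 and 76.9% among CpG-dense starts. The Ets motif CCGGAAG was at 16.4 and 22.5% (10.8% of all), and at 21.6 and 23.7% among CpG-dense starts. The motif TCTCGCGAG was at 0.475 and 1.87% (0.863% of all). Higher at members were the PU.1 motif GAGGAAG, at 16.8 against 13.5% (13.5% of all), and the TATA box TATAAA, at 6.40 against 4.68% (13.4% of all). Among CpG-dense starts these last 2 were close, at 13.3 and 12.6% and at 4.03 and 4.27%. The Ebf motif TCCCNNGGG, of the factor that acts with Pax5 in early B cells, was at 8.15 and 8.17% (7.15% of all). A match describes the letters and does not say that a factor is bound.

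The nearest Pax5 peak lay at a median of 23.5 kb from a member, with quartiles of 7.69 and 57.7 kb. A peak was within 5 kb of 18.1% of the members, within 10 kb of 29.8% and within 50 kb of 71.7%. The gene body held a Pax5 peak in 28.2% of the members. At the limit of the rule, the Per1 region, of a circadian repressor gene, was 5 bp from a Pax5 peak, that of Hist1h2ac 15 bp and that of Dnajc7, a co-chaperone, 24 bp. Just on the other side, the regions of Htr2a, Blk and Acbd4 overlapped a Pax5 peak by 1, 7 and 10 bp. Only 22 members (0.804%) had a Pax5 peak within 100 bp, and 75 active promoters with Pax5 (1.08%) overlapped it by up to 100 bp. These distances were taken from the H3K4me3 region, and the start can lie outside it. The start was inside a listed Pax5 peak at 2.16% of the members. Asking for no Pax5 peak within 1 kb of the region left 2569 members. Asking for the midpoint of a Pax5 peak inside the region left 3036 members. With the lower-scoring 50% of the Pax5 peaks left out, so that fewer peaks could be met, 5314 active promoters (54.8%) were without Pax5. The median top Pax5 score at active promoters was 276, and the highest were at Pabpc1 (3214), which encodes the poly(A)-binding protein, Csf2ra (3136), a cytokine receptor subunit, Dnpep (3100), an aminopeptidase, and Jun (3100), a subunit of AP-1, besides BC031781.

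Counted by gene, 10124 protein-coding genes had an active promoter region, and 2414 of them, or 23.8%, had no Pax5 peak at any. A further 345 genes had regions of both kinds, and 7365 had Pax5 at every active region. For comparison, 74.8% of the 2257 H3K4me3 regions near a start that met no H3K27ac peak were without Pax5.

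Gene families were compared with these shares, taking 39 families defined by gene symbol. A symbol can take in genes outside the family's name. Examples are Stat4 and Stat6 in the interferon-related family, Rab3ip and Rab3gap1 among Rab GTPases, and Zkscan genes among those named Zfp. Of the families, 13 lay above the 28.2% of all active promoter regions and 26 below. The interval lay wholly above it for 5 families, wholly below it for 4, and included it for the remaining 30. Families differ in width, so for the families at either end the share is set beside the value at the same widths, the share expected if each width class of the family had the share of all active promoters in that class. The interval lay above this value for 1 family, the interferon-related genes, and below it for 2, the cytosolic ribosomal proteins and the DNA replication genes. For the other 36 families it included the value. The value at the same widths does not take CpG content into account. Of regions with a CpG-dense start 18.8% lacked Pax5, and of the others 54.2%. Such a start was at 73.5% of all active regions, 26.0% of interferon-related, 17.1% of CD antigen and 33.3% of interleukin and chemokine receptor regions. It was at 29.0% of B-lineage marker, 89.5% of cytosolic ribosomal protein and 84% of DNA replication regions. The part of CpG content in the family shares was not tested.

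**Figure D5:**
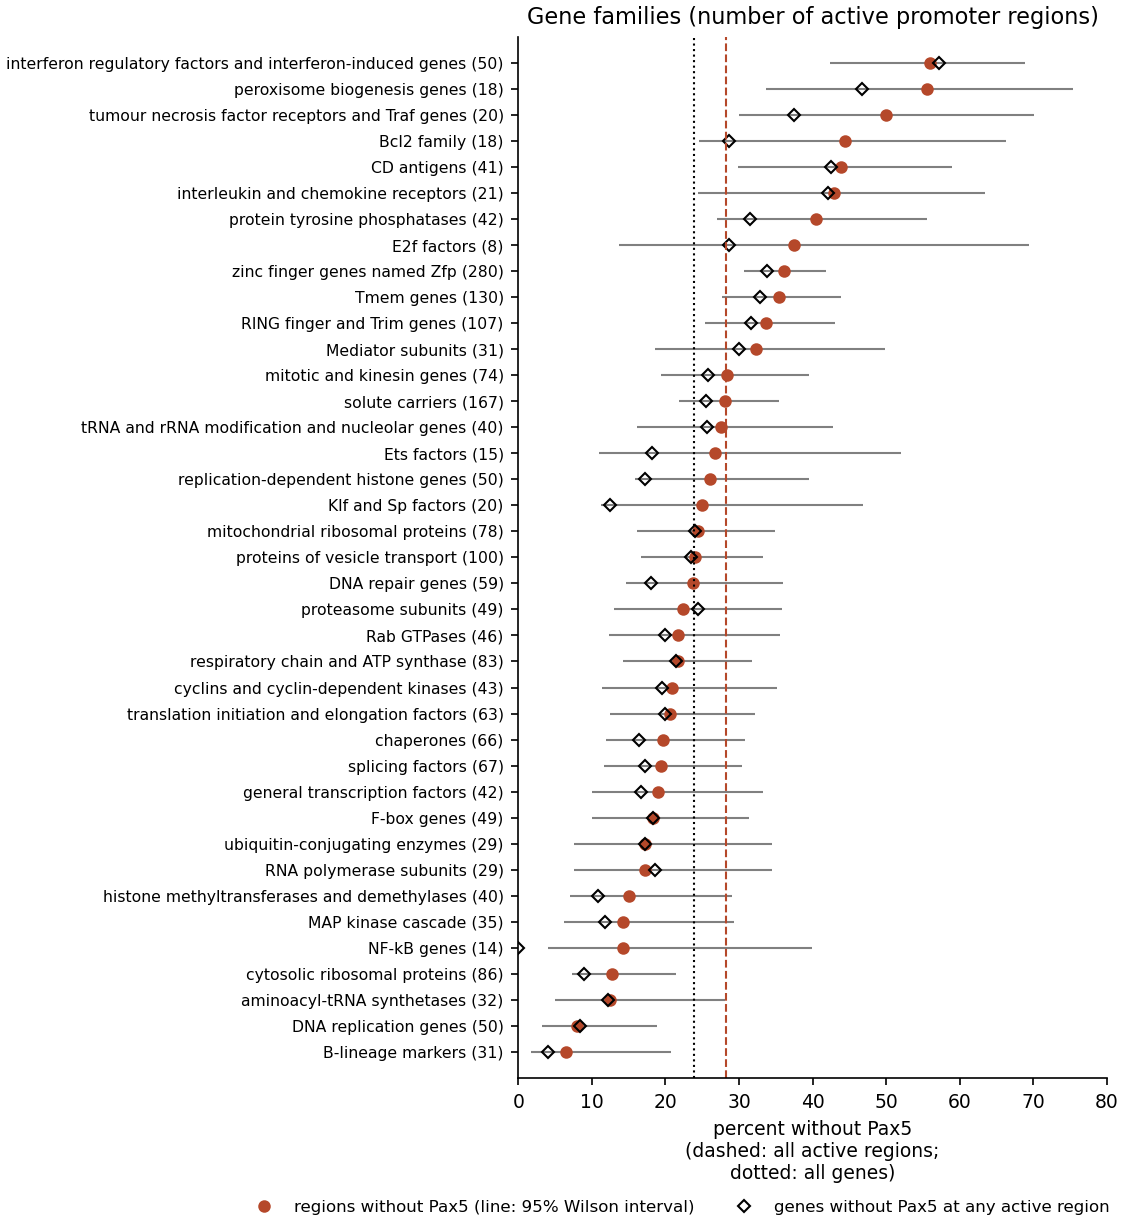
Percent of active promoter regions without Pax5 in each of 39 gene families (filled circles, with 95% Wilson intervals) and percent of the family's genes without Pax5 at any active region (open diamonds); the dashed line is the 28.2% of all active regions and the dotted line the 23.8% of all genes with an active region. Interferon-related genes were highest at 56.0% and B-lineage markers lowest at 6.45%.

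The interferon-related family, which also took in Stat4 and Stat6, had the highest share. It had 28 of 50 regions without Pax5 (56.0%, 42.3 to 68.8%), against 36.7% at the same widths. By gene, 24 of 42 (57.1%) had no Pax5 at any active region. Among them were Stat6, the signal transducer of interleukin 4, with a region of 2475 bp and an H3K27ac score of 111, and Irf5, an interferon regulatory factor, with regions of 2100 and 1925 bp. The guanylate-binding proteins Gbp2, Gbp4, Gbp5 and Gbp7, the oligoadenylate synthetases Oas1a, Oas1b, Oas2, Oas3 and Oasl2, and Ifit1, Ifit2, Ifitm3, Isg15 and Isg20 were also there. Their regions were mostly narrow, with a median of 962.5 bp over the family's members, and 26.0% of all active regions of the family had a CpG-dense start.

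Of the regions of CD antigens, 18 of 41 (43.9%, 29.9 to 59.0%) were without Pax5, against 30.4% at the same widths, and by gene 17 of 40. Cd38 and Cd180, a toll-like receptor homologue, had the widest, at 4050 and 2300 bp, followed by Cd53 at 1975 bp, Cd200r1 at 1725 bp and Cd44, the hyaluronan receptor, at 1525 bp. Of the regions of tumour necrosis factor receptors and Traf adaptors, 10 of 20 (50%, 29.9 to 70.1%) were members, against 34.4% at the same widths. These came from few genes, since 6 of 16 genes (37.5%, 18.5 to 61.4%) had no Pax5 at any region. The widest were at Tnfrsf13b, a receptor for BAFF and APRIL, with 1725 bp, and Tnfrsf14 with 1700 bp. Interleukin and chemokine receptors had 9 of 21 regions (42.9%, 24.5 to 63.5%) against 32.3% at the same widths, with Il2ra and Il15ra, the private chains of the interleukin 2 and 15 receptors, at 2150 and 1625 bp. Protein tyrosine phosphatases had 17 of 42 (40.5%, 27.04 to 55.5%) against 30.9%, including Ptpn12 at 2575 bp, Dusp16 at 2050 bp and Ptprc, which encodes CD45, at 1850 bp. The intervals of these last 2 families included the overall 28.2%.

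Peroxisome biogenesis genes had 10 of 18 regions without Pax5 (55.6%, 33.7 to 75.4%) against 38.7% at the same widths, and by gene 7 of 15. Pex5, the import receptor for peroxisomal enzymes, had a region of 2025 bp at 211 kb from a Pax5 peak, and Pex19, a chaperone of peroxisomal membrane proteins, had a region of 1450 bp. The 3 narrowest peroxisomal regions, at Pex10 and Pex16, were 25 to 100 bp wide. Zinc finger genes named Zfp were the largest family, with 101 of 280 regions (36.1%, 30.7 to 41.8%) against 31.8% at the same widths, and 91 of 269 genes (33.8%). Zfp608 and Zfp827 had the widest, at 3875 and 3075 bp. In the Bcl2 family, of regulators of cell death, 8 of 18 regions (44.4%, 24.6 to 66.3%) were members, against 26.6% at the same widths, but 4 of 14 genes, among them Bad at 2025 bp and Bcl2 at 1650 bp.

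Genes of the B lineage stood at the low end. Of 31 active regions of B-lineage markers, 2 were without Pax5 (6.45%, 1.79 to 20.7%), against 18.9% at the same widths. These were Btk, with a region of 2175 bp on chrX:131115711-131117885 at 1.96 kb from a Pax5 peak, and a region of 350 bp at Irf8, a myeloid and B cell factor whose other active region had Pax5. Pax5 itself, Ebf1, Cd79a, Cd79b, Blnk, Rag1, Rag2, Il7r, Vpreb1, Vpreb3, Blk, Cd22, Cd72, Foxo1, Ikzf1, Ikzf3, Spib, Bach2, Cd74, Cd24a, Irf4 and Lyn were among the markers with Pax5 at every active region. They are regulators, receptor components and kinases of B cells, and the list was fixed with knowledge of Pax5 biology, so its share is a description. The few active regions of the listed markers of other blood lineages were all members, which says nothing of genes of these lineages outside the list. They were those of Lck, the T cell kinase, with 1100 bp and an H3K27ac score of 34.9, of Csf1r (325 bp, score 9.75), Itgam (775 bp, score 8.16) and Lyz2 (50 and 75 bp, score 11.4) of myeloid cells, and of Klf1 (250 and 1225 bp, score 14.1) and Epor (1050 bp, score 9.75) of erythroid cells. These regions were 50 to 1225 bp wide. Of all active promoters, 68.3% under 500 bp, 52.1% from 500 to 1000 bp and 30.9% from 1000 to 1500 bp lacked Pax5. The regions are few, and the part of width in this count was not tested. Whether cells of other lineages contributed to these regions was not tested.

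DNA replication genes had 4 of 50 regions without Pax5 (8%, 3.15 to 18.8%) against 26.0% at the same widths. These were at Pole and Pole2, subunits of DNA polymerase epsilon, at Prim1, a primase subunit, and at Mcm10, with widths of 725 to 2625 bp. Cytosolic ribosomal proteins had 11 of 86 (12.8%, 7.29 to 21.5%) against 24.3%, and by gene 7 of 78 (8.97%). Rps6 and Rpl12 had the widest, at 1700 and 1675 bp. Aminoacyl-tRNA synthetases had 4 of 32 (12.5%, 4.97 to 28.1%) against 24.8% at the same widths, so that the interval ended just under the overall share, and by gene 4 of 33 (12.1%, 4.82 to 27.3%), an interval that included the 23.8% of all genes. The widest were at Qars and Aars, with 1450 and 1150 bp. Below 20% with intervals that included the overall share were the MAP kinase cascade (5 of 35), histone methyltransferases and demethylases (6 of 40), F-box genes (9 of 49), ubiquitin-conjugating enzymes (5 of 29), RNA polymerase subunits (5 of 29), general transcription factors (8 of 42), splicing factors (13 of 67), chaperones (13 of 66) and NF-kB genes (2 of 14). In the last, both regions belonged to Nfkb1, and 0 of 11 genes was without Pax5 at all active regions, a count whose interval reaches 25.9%. Even in these families single members had high scores. The H3K27ac scores of Snrnp35, a spliceosome component, and Taf7, a subunit of TFIID, were 103 and 140, among the upper 10% of all members, which lay above 58.7.

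The intervals of the remaining families all included the overall share. E2f factors had 3 of 8 (37.5%), Mediator subunits had 10 of 31 (32.3%), mitotic and kinesin genes 21 of 74 (28.4%), solute carriers 47 of 167 (28.1%), replication-dependent histone genes 13 of 50 (26.0%), proteins of vesicle transport 24 of 100 (24.0%), mitochondrial ribosomal proteins 19 of 78 (24.4%), DNA repair genes 14 of 59 (23.7%), proteasome subunits 11 of 49 (22.4%), respiratory chain and ATP synthase genes 18 of 83 (21.7%), cyclins and cyclin-dependent kinases 9 of 43 (20.9%), and translation initiation and elongation factors 13 of 63 (20.6%). Genes of tRNA and rRNA modification and the nucleolus (11 of 40), Ets factors (4 of 15), Klf and Sp factors (5 of 20) and Rab GTPases (10 of 46) lay between 21.7 and 27.5%. Med20 and Med15, Kif21b and Plk1, Slc43a1 and Slc30a7, and Psmb8, a subunit of the immunoproteasome, and Psmc3 were the widest members of 4 of these families, at 1975 and 1700 bp, 2475 and 2350 bp, 2275 and 2250 bp, and 2100 and 1700 bp. Tmem genes (46 of 130, 35.4%) and RING finger and Trim genes (36 of 107, 33.6%) were above it with intervals that reached down to 27.7 and 25.4%. By gene, 41 of 125 Tmem genes (32.8%, 25.2 to 41.4%) were without Pax5, an interval above the 23.8% of all genes. For RING finger and Trim genes it was 30 of 95 (31.6%, 23.1 to 41.5%), an interval that included it. In all, 17 of the 39 families were above and 22 below their value at the same widths.

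The X chromosome stood apart from the autosomes. Of its 281 active promoter regions 137 were without Pax5 (48.8%, 43.0 to 54.6%), against 27.6% of the autosomal regions, where single chromosomes ranged from 20.2% on chromosome 16 to 32.8% on chromosome 6. At the same widths 31.5% would have been without. Among CpG-dense starts 49 of 156 (31.4%) on the X chromosome and 18.5% on the autosomes lacked Pax5. Other values moved with it. The median top H3K27ac score of active regions was 21.9 on the X chromosome and 32.3 on the autosomes, the median width was 1275 and 1475 bp, and the 258 Pax5 peaks of the X chromosome had a median score of 157 against 209. The mice were of both sexes, and the part of these other values in the share without Pax5 was not tested. Btk, Ogt, Med12, Il2rg, Utp14a and Rps4x were among the X-linked members.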

How the data were processed

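Peak lists of pre-B ChIP-seq were used as deposited. The submitters' processing notes name Bowtie 0.12.9, MACS 1.4.2 and mm9. The study's methods name a later Bowtie version, and also state that the authors removed duplicate reads and kept alignments with limits on mismatches and positions. Peak calling settings are stated there for other factors, and those of these lists are not given in the sources used here. In the deposited H3K27ac and Pax5 lists the score is the authors' peak caller's number, and the H3K4me3 list holds 25 bp bins without one. Bins were joined across gaps up to 100 bp. Starts came from GENCODE M1 and sequence from NCBIM37, and no listed row ended beyond a chromosome. Overlaps were counted with Python 3.11.15, numpy 2.4.6, pandas 2.3.3 and scipy 1.17.1, and the interval steps were tested on simulated data. Regions were the unit, each list had 1 library, and no test was made.

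The members, the 39 families and the marker lists were chosen with earlier results of these data known. Named genes were the 10 widest members, the 5 with the highest H3K27ac score, all B-lineage markers, the 2 widest members of each family, the 5 genes with the highest Pax5 score, the 3 regions nearest to the limit on each side, and the widest promoters holding a motif. Other named genes were chosen after their values were seen. 12 alternatives were tried. Some marker and family results are not reported here.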

Additional observations from a re-analysis of the deposited data

How the results depend on the processing

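12 alternatives were tried for 7 results. The 2736 members became 5314 with the higher-scoring 50% of the Pax5 list and stayed within 1.5 times under the 11 others. The share without Pax5, 28.2%, was 32.3% when bins were joined only where they touched, 27.1% with gaps up to 500 bp, 27.1% with starts within 500 bp, 25.5% where the region overlapped a start, 27.2% with 50% of the region covered by H3K27ac, 26.4% with the higher-scoring 50% of the H3K27ac list, 31.3% with the midpoint of a Pax5 peak inside, 27.3% with the fixed window, 26.5% with no Pax5 within 1 kb, 54.8% with the higher-scoring Pax5 peaks and 26.1% with 1 region per gene. The median width, 1150 bp, was 950 bp for touching bins, 1225 bp for gaps up to 500 bp, 1250 bp for regions over a start, 1300 bp with the higher-scoring Pax5 peaks and 1225 bp with 1 region per gene. The ratio of widths, 1.39, was 1.61, 1.3, 1.29 and 1.33 for touching bins, regions over a start, higher-scoring Pax5 peaks and 1 region per gene. The ratio of H3K27ac scores, 1.70, was 1.53 with the higher-scoring H3K27ac peaks. The share of CpG-dense starts, 49.01%, was 55.4% for regions over a start, 40.4% with 50% covered by H3K27ac, 62.9% with the higher-scoring Pax5 peaks and 53.5% with 1 region per gene, below that of the active promoters with Pax5 under each of the 12. Stricter lists hold fewer peaks by construction, and the cause of the other changes was not tested. Of 39 families, 24 stayed on the same side of the overall share under each alternative that gave a value, and 424 of 464 family values stayed within the interval of the value reported. Pax5 binding below the lowest listed score cannot be seen, and with depth unknown its extent cannot be given. No paired analysis was possible because there was 1 library per mark or factor and so no replicate number to share.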

Other observations

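When active promoter regions were taken in order along each chromosome, members formed 1315 runs of a single region, 379 of 2, 106 of 3, 41 of 4 and 32 of 5 or more. These runs were looked for after the values had been seen, and no test was made of their number or length, so they do not show that members lie together more than their 28.2% of all active promoters brings. The longest held 9 regions over 302 kb of chromosome 11 (chr11:82703021-83005420), with Rad51l3 and the Schlafen genes Slfn1, Slfn2, Slfn3, Slfn5, Slfn8 and Slfn9, which encode a family of lymphocyte and interferon-responsive proteins. Its regions were 25 to 3675 bp wide. The next held 8 regions over 424 kb of chromosome 19 (chr19:34291486-34715685), with the death receptor gene Fas, the actin gene Acta2, Ch25h, which encodes cholesterol 25-hydroxylase, Lipa and Ifit2.

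Other runs held genes of related families. On chromosome 1 a run of 7 regions over 1013 kb held Pyhin1, Pydc4 and Ifi203, genes of the Pyhin family of DNA sensors. A run of 6 on chromosome 5 held Oas1a, Oas1b, Oas2 and Oas3, a run of 6 on chromosome 13 held Zfp738, Zfp493 and Zfp273, with regions of 700 to 1050 bp, and a run of 6 on chromosome 17 held the class I genes H2-T23 and H2-T24. Runs without such relatives occurred too, among them 7 regions over 450 kb of chromosome 2 with the mitotic checkpoint gene Bub1b, Plcb2, Ivd and Casc5.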
